A study of Bos taurus with 4 samples.

Results

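Genes that mark the trophectoderm, the outer epithelium of the blastocyst, were followed singly in cleavage-stage cattle embryos with and without knockdown of KDM5 histone demethylases. The list holds 9 genes, chosen by name: the keratins KRT8, KRT18 and KRT19, the transcription factors CDX2, GATA3, TFAP2A, TFAP2C and TEAD4, and the trophoblast interferon IFNT2. Matching RefSeq accessions to bovine symbols found a row for 8 of the 9, among 14002 genes with a symbol in the table. TEAD4 was not analysed here. Each of the 8 genes had 1 row.

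The libraries were made from polyadenylated RNA of Bos taurus embryos at the 8/16-cell stage, 3 days after insemination. All zygotes had received small interfering RNAs (siRNAs): a negative control in the NC group (2 libraries), or siRNAs against KDM5A, KDM5B and KDM5C in the KDM5_KD group (2 libraries). The treatment entry of KDM5_KD replicate 2 names KDM6 genes instead, while its title names Kdm5, so its group rests on the title. Strain, number of embryos per library and origin of the replicates are not given in the sources used here. The p-values therefore measure only the spread between these libraries, which may be technical.

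Keratins build the intermediate filaments of epithelia. A filament needs a type II keratin such as KRT8 paired with a type I keratin such as KRT18 or KRT19, and these simple-epithelium keratins are among the first made when the mammalian trophectoderm forms. CDX2, GATA3, TEAD4 and the AP-2 factors TFAP2A and TFAP2C are transcription factors of that lineage, and TEAD4 is controlled through the Hippo pathway. IFNT2 encodes interferon tau, by which the later ruminant conceptus signals pregnancy to its mother. The embryos sampled here had not yet formed a blastocyst.

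The siRNA target KDM5A had 28.4 and 27.1 FPKM (fragments scaled to transcript length and library size) in NC against 10.5 and 10.1 FPKM in KDM5_KD, and fell (limma adjusted p of 0.0333). KDM5C had 28.1 and 40.6 FPKM against 15.1 and 17.8 FPKM (limma adjusted p of 0.123). KDM6A, a gene named by the treatment entry of KDM5_KD replicate 2, had 9.29 FPKM in that library, within the NC range of 7.63 to 11.3 FPKM. In KDM5A and KDM5C that library was below both controls, as its title would have it. KDM5B was not analysed here. Oocyte and cleavage-stage markers were abundant in every library, with a summed level of 428 to 550 FPKM in NC and 660 to 740 FPKM in KDM5_KD over 11 rows. Relative to NC replicate 2, the deepest library by the steps of its low values, the other 3 libraries had 0.680 to 0.798 times its depth. Absolute depth is unknown, so no counting intervals are given.

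KRT8 had the largest difference of the trophectoderm genes tested, and both knockdown libraries were above both controls. Its mean over the NC libraries was 1.98 ± 1.24 FPKM (SD, n = 2). Over the KDM5_KD libraries it was 13.7 ± 6.35 FPKM (SD, n = 2), or 6.92 times as high. The means of its type I partner KRT18 were 2.12 ± 0.642 FPKM for the controls and 1.59 ± 0.241 FPKM for the knockdown (SD, n = 2 each). None of the 7 genes tested passed an adjusted p of 0.05 in limma, where 0.279% of all 8970 transcripts with a mean of at least 1 FPKM did. At an unadjusted limma p under 0.05 there was 1 gene, KRT8, of the 7, against 17.5% of all transcripts. The IFNT2 row was under the filter and was not tested. Each of the 7 genes tested had an NC mean above 1 FPKM, so none passed the filter through the knockdown group alone.

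**Figure D1:**
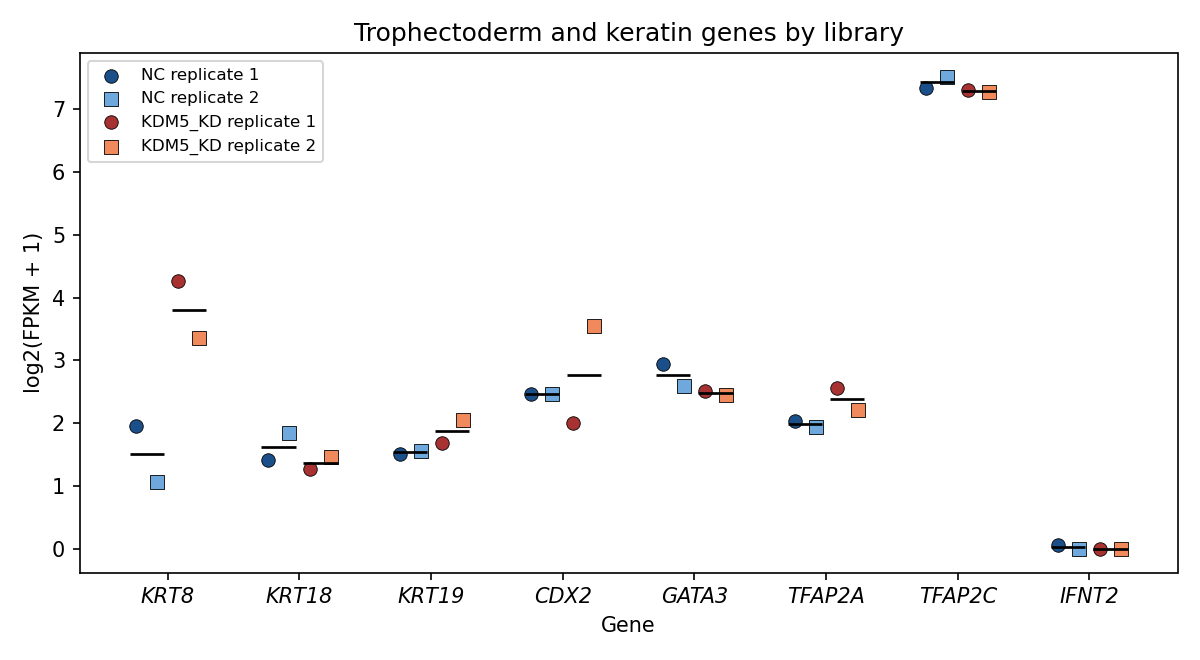
Level of each gene in each library as log2(FPKM + 1), with circles for replicate 1, squares for replicate 2 and bars for group means. KRT8 is the gene whose groups stand far apart, TFAP2C is high in all 4 libraries, and IFNT2 lies at or near 0 throughout.

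The order of the levels was led by TFAP2C, at a mean of 163 FPKM over the 4 libraries. No library of TFAP2C was below 152 FPKM, and no library of any other gene on the list was above 18.2 FPKM. KRT8 (7.85 FPKM), CDX2 (5.66), GATA3 (5.25), TFAP2A (3.61), KRT19 (2.29) and KRT18 (1.86) followed by mean level. Each neighbouring pair among these 6 overlapped in range, so the order between neighbours was not resolved, although TFAP2A was above KRT19 within each library. Genes farther apart could separate: no library of GATA3 was as low as any of KRT19 or KRT18, and no library of CDX2 or TFAP2A was as low as any of KRT18. IFNT2 was last and did not reach the range of KRT18. FPKM is scaled to transcript length, which allows levels of different genes to be set side by side.

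KRT8 (NM_001033610), the type II keratin of simple epithelia, measured 2.86 FPKM in NC replicate 1 and 1.10 FPKM in NC replicate 2, against 18.2 FPKM in KDM5_KD replicate 1 and 9.23 FPKM in KDM5_KD replicate 2. Both knockdown libraries were above both controls, and within each group replicate 1 was the higher library. The position of KRT8 among all 14517 rows moved accordingly, from the 51.7th and 43.0th percentile in NC to the 77.9th and 65.7th in KDM5_KD. On the log2(FPKM + 1) scale the difference was 2.30 (SE 0.41), with an unadjusted 95% interval from 1.31 to 3.29 and a limma adjusted p of 0.106. It ranked 27th from the top among the 8970 transcripts tested. Without NC replicate 1 the difference was 2.74 and passed (limma adjusted p of 0.0280), and without each of the other libraries it lay between 1.84 and 2.75 and did not. KRT8 is one of the keratins with processed copies elsewhere in mammalian genomes, so reads may be divided between rows and its level is uncertain.

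KRT18 (NM_001192095), the usual type I partner of KRT8, was at 1.67 and 2.58 FPKM in NC replicates 1 and 2. In the KDM5_KD libraries it was at 1.42 and 1.76 FPKM, within a range that overlapped the controls. The difference was -0.26 (SE 0.24) on the log2(FPKM + 1) scale, with a 95% interval from -0.84 to 0.32 and a limma adjusted p of 0.626. The upper bound of that interval lies below the lower bound for KRT8. The row shares the uncertainty from processed copies.

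The ratio of KRT8 to KRT18 in FPKM followed from these levels. The controls gave ratios of 1.72 and 0.428, and the knockdown libraries gave 12.8 and 5.24. In NC the order of the partners was thus not resolved, with KRT8 above in one library and KRT18 above in the other. In both knockdown libraries KRT8 was well above. Whether the ratio differed between groups was not tested.

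KRT19 (NM_001015600), a type I keratin of simple epithelia that can also pair with KRT8, had 1.85 and 1.95 FPKM in NC and 2.23 and 3.14 FPKM in KDM5_KD. Both knockdown libraries were above both controls, by a margin smaller than the gap between the knockdown libraries themselves. The difference was 0.34 (SE 0.22, 95% interval from -0.20 to 0.87, limma adjusted p of 0.484). After quantile normalization it was 0.03.

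**Figure D2:**
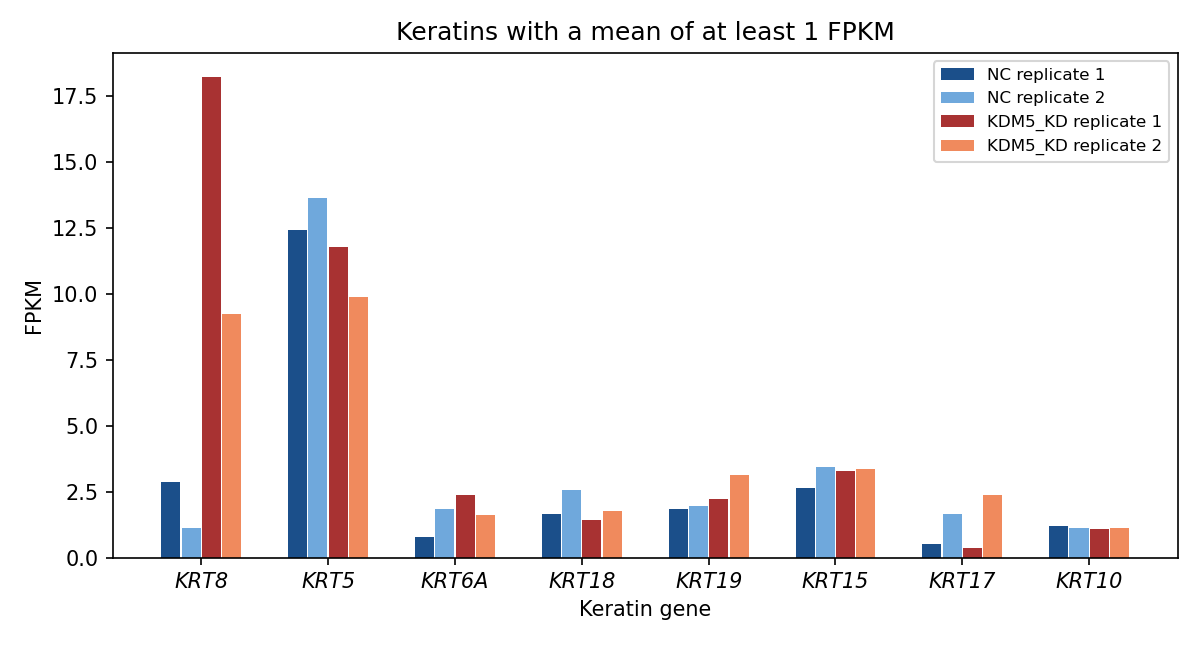
FPKM of the 8 keratin rows with a mean of at least 1 FPKM, 1 bar per library. KRT8 is at 9.23 and 18.2 FPKM in the knockdown libraries against 1.10 and 2.86 FPKM in NC, while KRT5 stays between 9.89 and 13.6 FPKM and the other keratins at 3.43 FPKM or less.

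Most of the remaining keratin family was under 1 FPKM. Of 40 further keratin rows, covering 39 genes, 31 were under 1 FPKM in every library and 6 were listed at 0 in all 4. Among the 5 rows tested none passed in limma (0 at an unadjusted p under 0.05), 1 lay below and none above the NC range in both knockdown libraries, and the median difference was 0.10, against 0.09 for all transcripts. The shares over all transcripts serve for this list and those that follow. They were 0.279% passing in limma, 17.5% at an unadjusted limma p under 0.05, 35.1% above and 15.6% below. With so small a share passing, a short list in which none passed says little about its genes. KRT5, a type II keratin best known from the basal layer of stratified epithelia, was the most abundant, at 12.4 and 13.6 FPKM in NC and 11.8 and 9.89 FPKM in KDM5_KD. In the NC libraries KRT5 was therefore above KRT8, and in the KDM5_KD libraries it was below KRT8 in replicate 1 and above it in replicate 2. KRT15, a type I keratin, was at 2.64 and 3.43 against 3.28 and 3.36 FPKM, and KRT6A, a type II keratin, at 0.772 and 1.85 against 2.36 and 1.63 FPKM. KRT14, the usual partner of KRT5 (chosen after its values were seen), did not exceed 0.246 FPKM in any library.

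In the reference annotation ARS-UCD2.0 KRT18 and KRT8 are adjacent protein-coding genes, with the eukaryotic translation initiation factor gene EIF4B on the KRT18 side and KRT78 on the KRT8 side. EIF4B had 225 and 252 FPKM in NC and 231 and 223 FPKM in KDM5_KD (difference -0.07, limma adjusted p of 0.819), and KRT78 stayed at or under 0.0738 FPKM. The next neighbours beyond KRT78 were also low: KRT79 was listed at 0 in all libraries and KRT4 did not exceed 0.0763 FPKM. On the other side, beyond EIF4B and TNS2 (not analysed here), SPRYD3 had 12.4 and 14.5 against 14.5 and 15.2 FPKM. IGFBP6, which encodes a binding protein for insulin-like growth factors, had 8.52 and 3.04 against 10.8 and 10.3 FPKM (difference 0.90, limma adjusted p of 0.316), with NC replicate 1 above NC replicate 2 as for KRT8. These neighbours were picked after the values of KRT8 were seen.

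CDX2 (NM_001206299), a homeobox factor required in the trophectoderm lineage, had 4.50 FPKM in NC replicate 1 and 4.52 FPKM in NC replicate 2. It was at 3.00 FPKM in KDM5_KD replicate 1 and at 10.6 FPKM in KDM5_KD replicate 2. The knockdown libraries thus lay on opposite sides of nearly equal controls. The difference of 0.31 (SE 0.48, 95% interval from -0.86 to 1.48, limma adjusted p of 0.789) has a direction set by 1 library. It was 1.08 without KDM5_KD replicate 1 and -0.46 without KDM5_KD replicate 2, the library with the discordant treatment entry, and neither passed (limma adjusted p of 0.279 and 0.752).

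GATA3 (NM_001076804), a zinc finger factor of the trophoblast, had 6.71 and 5.05 FPKM in NC and 4.73 and 4.49 FPKM in KDM5_KD. Both knockdown libraries were just below the lower control, and the controls differed from each other by more than that gap. The difference was -0.29 (SE 0.21, 95% interval from -0.79 to 0.22, limma adjusted p of 0.530). It was -0.11 without NC replicate 1 and -0.46 without NC replicate 2, and neither passed.

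TFAP2C (NM_001075509), which encodes AP-2 gamma, had 161 and 182 FPKM in NC against 157 and 152 FPKM in KDM5_KD. These levels were at or above the 97.8th percentile of all rows in each library. Both knockdown libraries were below both controls, by less than the gap between the controls. The difference was -0.15 (SE 0.12, 95% interval from -0.43 to 0.14, limma adjusted p of 0.569).

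TFAP2A (NM_001080228), which encodes the related AP-2 alpha, had 3.09 and 2.82 FPKM in NC and 4.88 and 3.64 FPKM in KDM5_KD. Both knockdown libraries were above both controls, and the difference was 0.40 (SE 0.22, 95% interval from -0.13 to 0.93, limma adjusted p of 0.398). The ratio of TFAP2C to TFAP2A was 52.1 and 64.4 for the controls, against 32.1 and 41.9 for the knockdown. Of the pair, TFAP2C was thus by far the more abundant in every library.

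IFNT2 (NM_001015511) was listed at 0.0502 FPKM in NC replicate 1, at 0 in NC replicate 2 and KDM5_KD replicate 1, and at 8.53e-09 FPKM in KDM5_KD replicate 2. A value that small is a fraction of a read divided among rows, which can happen between the near-identical interferon tau genes, and a listed 0 may be an estimate that failed. No fold is given. The paralog IFNT3 was listed at 0 in 3 libraries and at 4.36e-07 FPKM in KDM5_KD replicate 2. Both rows were thus listed at or near 0 in every library, with no stated limit of detection.

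Of the 7 genes tested, 3 (KRT8, KRT19 and TFAP2A) had both knockdown libraries above both controls and 2 (GATA3 and TFAP2C) had both below. Over all transcripts 35.1% lay above and 15.6% below. The median difference of the 7 was 0.31, against 0.09 over all 8970. Over all transcripts the median shifted by -0.13 with median-ratio scaling and by -0.14 with quantile normalization. Relative to that median, KRT8 was 2.21 higher with the values as deposited, 2.22 higher with median-ratio scaling and 2.10 higher after quantile normalization. No gene on the list changed sign under either scaling.

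**Figure D3:**
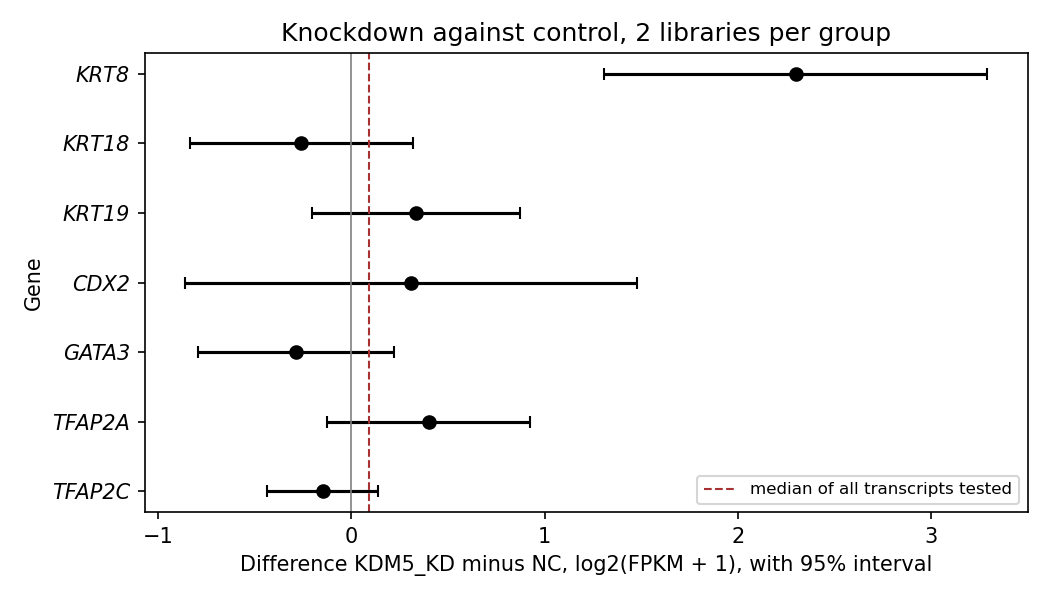
Difference between KDM5_KD and NC on the log2(FPKM + 1) scale for the 7 genes tested, with unadjusted 95% intervals from limma, and the median of all transcripts as a dashed line. The interval of KRT8 runs from 1.31 to 3.29, and those of the other 6 genes include 0.

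**Figure D4:**
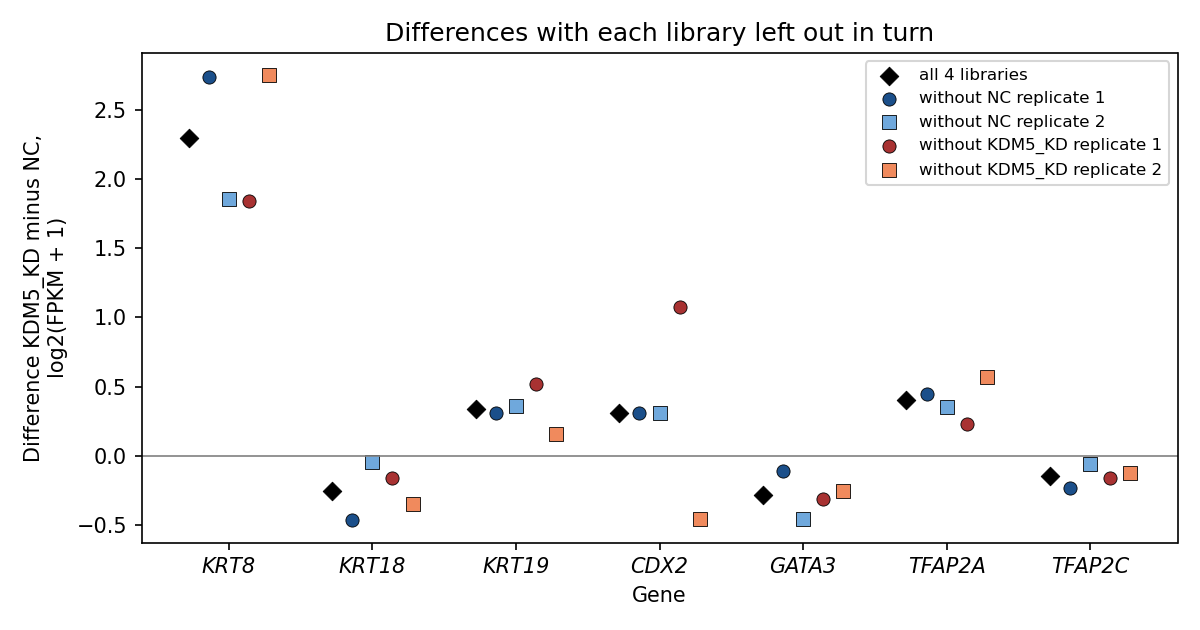
Difference between KDM5_KD and NC on the log2(FPKM + 1) scale with all 4 libraries (diamonds) and with each library left out in turn. KRT8 stays between 1.84 and 2.75, and CDX2 moves from -0.46 to 1.08 depending on which knockdown library is left out.

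By pattern over the 4 libraries, the transcripts most like KRT8 were FN1, which encodes the matrix protein fibronectin, CRIP1, which encodes a LIM-domain protein, and SCD, a fatty acid desaturase gene. Likeness was the root mean square difference of mean-centred log2(FPKM + 1) values, which was 0.13, 0.25 and 0.28. FN1 had 1.81 and 0.944 FPKM in NC and 13.8 and 7.66 FPKM in KDM5_KD, and so repeated the order of the 4 libraries seen for KRT8. CRIP1 and SCD had the same order. SCD, at 7.74 and 4.51 against 37.4 and 33.4 FPKM, passed in limma (difference 2.39, limma adjusted p of 0.0333). FN1 reached the mean of at least 5 FPKM that the search required through the knockdown group alone. The 3 transcripts most like KRT18 were MRPL58, PHACTR4 and PPP1R13L (0.01 to 0.02), and those most like TFAP2C were RBM23, SNRPA and TGIF1 (0.01 each). Those 6 transcripts had small differences, between -0.26 and -0.13. With 4 libraries such likeness is a description.

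Partners and neighbours of keratin filaments were compared next. Of 20 genes listed, 16 had a row and 12 were tested. None passed in limma (3 at an unadjusted p under 0.05), 3 lay above and 3 below the controls in both knockdown libraries, and the median difference was 0.01. PNN, which encodes the desmosome-associated protein pinin, was at 159 and 133 FPKM against 143 and 124 FPKM. LMNA, which encodes lamins A and C of the nuclear envelope, was at 97.8 and 78.3 against 77.9 and 78.1 FPKM. VIM, the intermediate filament gene of mesenchymal cells, had 35.6 and 8.09 FPKM in NC against 84.6 and 98.1 FPKM in KDM5_KD, a difference of 2.34 (limma adjusted p of 0.157). VIM was close to KRT8 in the size of its difference and, like KRT8, was higher in NC replicate 1 than in NC replicate 2. Desmoplakin (DSP, chosen after its values were seen), which anchors keratin filaments at desmosomes, did not exceed 0.890 FPKM in any library.

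Markers of other cell types were read beside KRT8. The 7 fibroblast and stroma markers, each with a row, summed to 50.6 to 59.4 FPKM in NC and to 81.5 to 111 FPKM in KDM5_KD. Of the 6 tested, 4 lay above the controls in both knockdown libraries, none passed in limma (3 at an unadjusted p under 0.05) and the median difference was 0.98. COL1A1, a collagen gene, was at 28.4 and 23.9 against 47.7 and 35.8 FPKM, PDGFRA, a growth factor receptor gene, at 22.3 and 18.8 against 24.1 and 21.8 FPKM, and LUM, a matrix proteoglycan gene, at 4.02 and 5.12 against 23.8 and 15.6 FPKM. The summed level was highest in KDM5_KD replicate 1, as for KRT8 and for the cumulus and granulosa markers below. DCN (chosen after its values were seen) was instead highest in KDM5_KD replicate 2, at 1.95 FPKM. NC replicate 1 was above NC replicate 2, as for KRT8, in 4 of the 7 rows, but not for LUM, COL1A2 and DCN. COL1A2 reached the filter through the knockdown group alone (0.359 and 0.694 against 4.32 and 2.02 FPKM), and without it 3 of 5 lay above, 2 had an unadjusted p under 0.05 and the median was 0.96. None of these 7 rows was at 0 in all libraries, and PDGFRA is also on the list of inner cell mass genes.

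The 13 cumulus and granulosa markers, each with a row, summed to 22.6 to 30.8 FPKM in NC and to 45.8 to 48.3 FPKM in KDM5_KD. Of the 9 tested, 7 lay above the controls in both knockdown libraries, none passed in limma (5 at an unadjusted p under 0.05) and the median difference was 0.87. CD44, which encodes the hyaluronan receptor, was at 3.44 and 3.11 against 9.94 and 8.26 FPKM. STAR, a gene of steroid synthesis, was at 8.40 and 5.15 against 9.22 and 10.2 FPKM, and the nuclear receptor gene NR5A2 at 5.97 and 5.58 against 6.19 and 6.39 FPKM. AMH and TNFAIP6 (both chosen after their values were seen) were tested and had overlapping groups. AMH was at 2.77 and 1.12 against 1.28 and 0.957 FPKM, and TNFAIP6 at 1.21 and 1.31 against 1.10 and 1.26 FPKM. No row was at 0 in all 4 libraries, and 3 of the 13 were under 1 FPKM in each. Among those 3, FSHR and CYP19A1 (also chosen after their values were seen) did not exceed 0.0443 and 0.0602 FPKM. VCAN reached the filter through the knockdown group alone (0.811 and 0.524 against 3.93 and 2.71 FPKM), and without it 6 of 8 lay above, 4 had an unadjusted p under 0.05 and the median was 0.68. In bulk samples more cells of a type and more RNA per cell cannot be told apart, and the part of these cell types in the difference of KRT8 was not tested.

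The 5 rows of stratified-epithelium markers summed to 15.7 and 16.4 FPKM in NC and to 15.5 and 14.2 FPKM in KDM5_KD, most of it KRT5, with 12.4 and 13.6 FPKM in NC and 11.8 and 9.89 FPKM in KDM5_KD. Leukocyte and blood markers (4 rows) summed to 31.7 and 5.66 FPKM in NC and to 38.3 and 33.2 FPKM in KDM5_KD, of which the haemoglobin gene HBA made up nearly all. Of the 4 rows, 3 were under 1 FPKM in every library. The 3 sperm markers summed to at most 1.35 FPKM in any library.

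Paralogs of the lineage factors were present at varied levels. Of 13 listed, 8 had a row and 5 were tested, none passed in limma (1 at an unadjusted p under 0.05), 3 lay above and none below the controls in both knockdown libraries, and the median difference was 0.59. GATA2, a factor of the trophoblast and of blood, had 20.1 and 15.5 FPKM in NC against 18.9 and 39.9 FPKM in KDM5_KD, so that, as for CDX2, KDM5_KD replicate 2 stood above the other 3 libraries. GATA4, a factor of the hypoblast and of the heart, had 4.02 and 1.55 FPKM against 9.25 and 7.39 FPKM (difference 1.37, limma adjusted p of 0.153). TFAP2B, the AP-2 beta gene, had 3.21 and 2.42 against 3.93 and 5.11 FPKM. CDX1, the paralog of CDX2 (chosen after its values were seen), swung within both groups, from 0.534 to 4.11 FPKM in NC and from 0.306 to 6.19 FPKM in KDM5_KD.

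Genes of the Hippo pathway, which sets whether TEAD factors are active in outer or inner cells, were mostly expressed. Of 22 listed, 14 had a row and 13 were tested. None passed in limma (2 at an unadjusted p under 0.05), 6 lay above and 1 below the controls in both knockdown libraries, and the median difference was 0.19. MOB1A, a cofactor of the LATS kinases, was at 58.2 and 48.4 FPKM against 65.8 and 55.8 FPKM, and the kinase gene STK4 at 17.9 and 18.8 against 24.5 and 27.1 FPKM. VGLL4, which encodes a TEAD-binding repressor, had 33.6 and 21.0 FPKM in NC against 35.3 and 69.5 FPKM in KDM5_KD, again with KDM5_KD replicate 2 highest. The gene below was WWTR1 (chosen after its values were seen), which encodes the TEAD coactivator TAZ, at 12.6 and 14.2 against 11.2 and 8.70 FPKM (difference -0.40, limma adjusted p of 0.343).

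Further trophectoderm and later trophoblast genes divided into an expressed part and a part under 1 FPKM. Of 36 listed, 31 had at least 1 row and 15 rows were tested. None passed in limma (6 at an unadjusted p under 0.05), 10 lay above and 2 below the controls in both knockdown libraries, and the median difference was 0.37. These are 66.7% above, 13.3% below and 40% at that p, against 35.1%, 15.6% and 17.5% over all transcripts. ARID3A reached the filter through the knockdown group alone and ASCL2 through the NC group alone, and without them 9 of 13 lay above, 1 lay below and 5 had an unadjusted p under 0.05. The most abundant were ID3, a helix-loop-helix inhibitor gene, at 70.7 and 54.2 against 102 and 108 FPKM, BMP4, a growth factor gene, at 74.1 and 67.9 against 95.5 and 79.3 FPKM, and ID2 at 40.1 and 61.0 against 51.6 and 53.6 FPKM. Of the 33 rows 18 were under 1 FPKM in every library, and 4 of these, the pregnancy-associated glycoprotein genes PAG2, PAG8 and PAG11 and the prolactin-related PRP1, were listed at 0 throughout (picked for that value).

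The polarity, junction and blastocoel genes that shape the trophectoderm epithelium spanned low to abundant levels. Of 23 listed, 20 had a row and 18 were tested. None passed in limma (4 at an unadjusted p under 0.05), 7 lay above and 2 below the controls in both knockdown libraries, and the median difference was 0.00. These are 38.9% above, 11.1% below and 22.2% at that p, against 35.1%, 15.6% and 17.5% over all transcripts. CLDN4 reached the filter through the NC group alone, and without it the median was 0.08. CDH1, which encodes E-cadherin, was at 126 and 166 against 127 and 135 FPKM, the water channel gene AQP11 at 131 and 92.0 against 95.2 and 97.1 FPKM, and the tight junction gene F11R at 93.4 and 110 against 101 and 91.9 FPKM. Their groups overlapped.

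Inner cell mass genes, the counterpart of the trophectoderm, had 9 rows for 11 genes and 7 tested. None passed in limma (1 at an unadjusted p under 0.05), none lay above and 2 lay below the controls in both knockdown libraries, and the median difference was -0.13. KLF4 was at 606 and 517 against 507 and 422 FPKM, SALL4 at 139 and 110 against 121 and 101 FPKM, and PRDM14 at 89.1 and 76.1 against 84.8 and 66.5 FPKM. All 3 encode transcription factors of pluripotent cells. The 2 genes below were KLF4 and SOX2 (chosen after its values were seen), and SOX2 was the 1 at that p. SOX2 had 107 and 76.3 FPKM in NC against 66.2 and 53.8 FPKM in KDM5_KD (difference -0.59, limma adjusted p of 0.215).

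The interferon response genes are given beside IFNT2, whose product acts through them in the uterus. Of 23 listed, 20 had a row and 16 were tested, none passed in limma (9 at an unadjusted p under 0.05), 13 lay above and none below the controls in both knockdown libraries, and the median difference was 0.73. Their levels were highest for IFI6, ISG15 and IFI27, with 89.0, 44.1 and 33.8 FPKM in NC replicate 1, 25.9, 11.9 and 9.55 FPKM in NC replicate 2, and at least 226, 84.3 and 56.5 FPKM in the knockdown libraries. OAS1Z and IFIT3 reached the filter through the knockdown group alone, and without them 11 of 14 lay above, 8 had an unadjusted p under 0.05 and the median was again 0.73. NC replicate 1 was above NC replicate 2 in 15 of the 20 rows, the same order as for KRT8. That order was not particular to this list. It held in 10 of 11 oocyte and cleavage-stage rows and 10 of 13 cumulus and granulosa rows. Counts were 9 of 14 for the Hippo pathway, 6 of 9 for inner cell mass genes and 4 of 7 for fibroblast markers. They were 9 of 20 for polarity and junction genes, 15 of 33 for further trophectoderm genes and 13 of 40 for further keratins. Of those 40 keratin rows, 6 were listed at 0 in all 4 libraries and could not show the order. The share of this order over all transcripts was not counted. IFNT2 itself was listed at or near 0 in every library, where a listed 0 may be an estimate that failed. A link between IFNT2 and the interferon response genes was not tested.

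**Figure D5:**
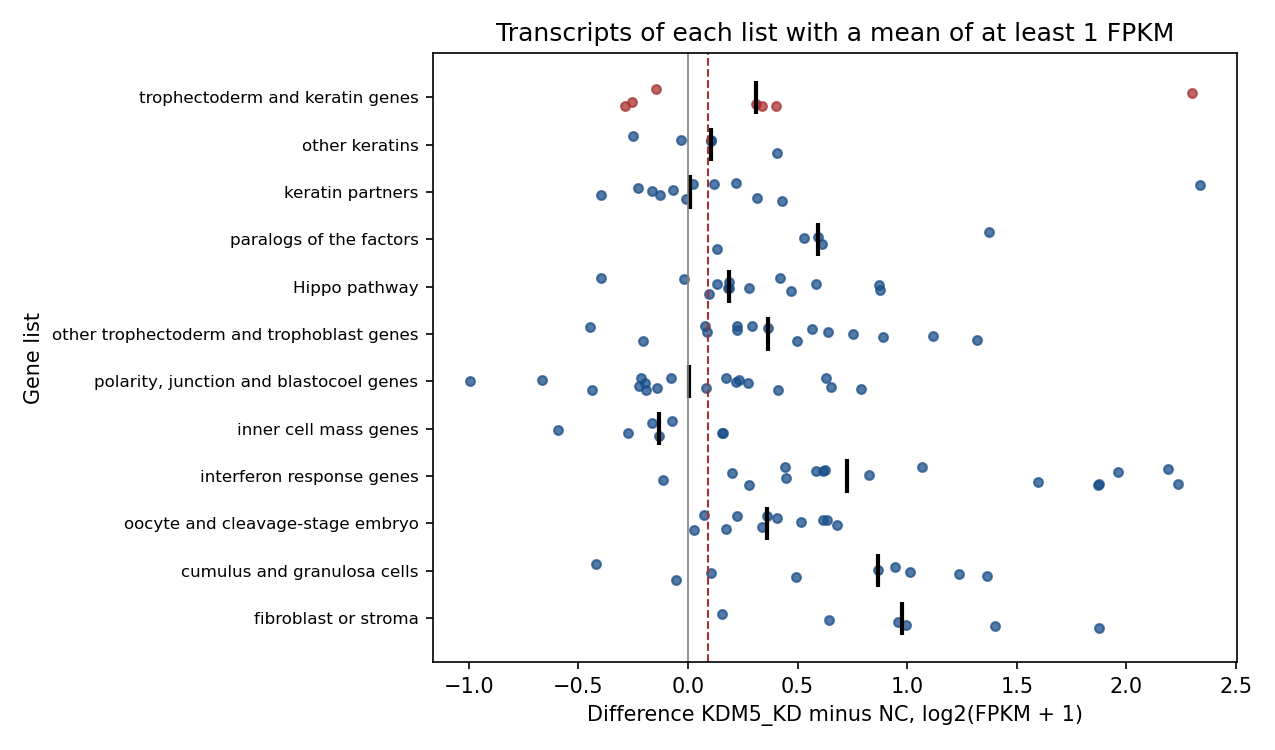
Difference between KDM5_KD and NC on the log2(FPKM + 1) scale for each tested transcript of each list (points), the list's median (black bars) and the median of all transcripts (dashed line at 0.09). Among the 7 trophectoderm and keratin genes (red) KRT8 stands apart at 2.30, and the medians of the interferon, cumulus and fibroblast lists lie between 0.73 and 0.98.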

How the data were processed

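Accessions were matched, ignoring their version, to a RefSeq table of the assembly ARS-UCD2.0, and 14295 of 14517 rows received a symbol. The deposited values are FPKM, computed by the authors. The submitters' processing notes name Trimmomatic, HISAT2, featureCounts and Cufflinks without roles, and the build is not given in the sources used here, so no positions are printed. Per the labels' protocols, RNA was selected on oligo(dT) beads and amplified by PCR. Strand-specific counting is not mentioned.

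The test was limma 3.58.1 (R 4.3.3, eBayes with a trend), applied to log2(FPKM + 1) for the 8970 transcripts with a mean of at least 1 FPKM, all 4 libraries together, with Benjamini-Hochberg adjustment over all of them. This scale understates changes of low genes. Figures were drawn with matplotlib 3.10.9 and tables made with pandas 2.3.3 and numpy 2.4.6 under Python 3.11.15. The fit was tested on data simulated with a spread drawn from its own model. At a limma adjusted p under 0.05 it recovered 33% of log2 changes of 1 and 90% of log2 changes of 2. Of its calls, 7.52% fell on unchanged transcripts. The simulated libraries varied independently of each other, which the deposited ones may not do, so these shares may not hold for the genes reported here. The genes and lists were chosen with earlier results of these data known. From each list the text names transcripts that passed, otherwise the 3 with the highest mean. Genes named for another reason are marked as chosen after their values were seen, or for where they lie or how they passed the filter. The pattern search covered symbols other than LOC identifiers with a mean of at least 5 FPKM. The planned promoter motif search was not run.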

Additional observations from a re-analysis of the deposited data

How the results depend on the processing

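Each result was recomputed with a pseudocount of 0.1, no filter (rows at 0 in all libraries left out), a mean of at least 5 FPKM, median-ratio scaling, quantile normalization, eBayes without a trend, robust eBayes, the replicate number as a block, and without each library. The KRT8 difference was 2.79 with a pseudocount of 0.1, 2.19 with median-ratio scaling and 2.05 after quantile normalization. The filters, the eBayes settings and the replicate block cannot change the estimate, which stayed at 2.30, but only its error. Over the 8 alternatives with all libraries the limma adjusted p ran from 0.0399 to 0.253. KRT8 reached the mean of at least 5 FPKM through the knockdown group alone (NC mean 1.98 FPKM). With a library left out the KRT8 difference lay between 1.84 and 2.75. It passed only with the replicate block (2.30, limma adjusted p of 0.0399) and without NC replicate 1. CDX2 lay between -0.46 and 1.08 with a library left out. No other gene on the list passed or changed sign, though KRT19, KRT18 and TFAP2A were under the stricter filter and gave no value there. With a library left out, the lone library of a group is assumed to vary like the other group. No difference is printed for IFNT2, which only the fit with no filter included. The cause of these changes was not tested. Libraries of the same replicate number deviated together with a correlation of 0.229, but the labels name nothing that a number stands for, so pairing is not established.

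The number of transcripts higher in KDM5_KD was 17, against 2 with no filter, 11 with the stricter filter, 6 without a trend, 37 with robust eBayes and 8 with the replicate block. The number lower was 8, against 1 with no filter and 4 with the replicate block. With a library left out the number higher ranged from 3 to 323, the latter without NC replicate 1, and the number lower from 3 to 17. Of the list medians, 84 of 104 recomputed values moved by less than the spread between libraries and 20 by more. The 84 overstate stability, because the eBayes settings and the replicate block cannot move a median and are counted among them. The 104 values include a filter of at least 1 FPKM in both groups, chosen after seeing the data. Low levels limit IFNT2 and most keratins, and without read counts no detection limit can be stated.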
